A study of Homo sapiens with 35 samples.

Results

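BMP ligands and the genes that answer them were followed through the differentiation of human embryonic stem cells of the established line H1 toward definitive endoderm. The set holds 9 of the 16103 genes in the bulk table, chosen by symbol: the ligands BMP2, BMP4 and BMP7, the responders ID1, ID2, ID3 and ID4, and the pathway SMADs SMAD6 and SMAD9. All 9 were measured in the 30 bulk libraries and in 3 single-cell libraries, and all 9 passed the filter on low counts in every bulk comparison.

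Every group came from the H1 line. Bulk groups held 2 libraries each. At 6 h, unsorted cells had received no agent, CHIR (CHIR99021, which inhibits the kinase GSK3 and so activates the Wnt pathway), CHIR with Activin A, CHIR with JNJ, CHIR with BRD, or BRD without CHIR. JNJ and BRD are code names of compounds given in place of Activin A. At 24 h the same groups were available except the untreated one, which was not analysed here. At 72 h, cells sorted as definitive endoderm had received CHIR on the first day together with Activin A, JNJ, BRD, or BRD plus a low amount of Activin A (labelled LoAA), and the same agent without CHIR on the following days. Per the protocol, CHIR was used at 3 µM and Activin A at 100 ng/ml; doses of JNJ, BRD and LoAA are not given in the sources used here. The single-cell libraries held cells at 36 h labelled primitive streak (Activin A and CHIR, then Activin A), endoderm at 72 h (the same agents) and mesoderm at 72 h made with a commercial induction medium. The labels do not say whether libraries of a pair came from separate cultures, so p-values measure the spread between these libraries, which may be technical.

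BMPs are secreted ligands of the TGF-beta family that bind paired serine/threonine kinase receptors, which phosphorylate SMAD1, SMAD5 and SMAD9 (also called SMAD8). These enter the nucleus with SMAD4 and switch on targets, of which the ID genes are among the most direct. ID proteins lack a DNA-binding domain and hold E proteins away from DNA, and SMAD6 is an inhibitor that the pathway induces against itself. Activin A acts through another branch, SMAD2 and SMAD3, and in the early embryo BMP and Activin or Nodal signals together pattern the primitive streak and its mesoderm and endoderm.

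Bulk libraries held 4.57 to 49.5 M (mega) counts. The libraries numbered in series 46 by their titles, which are all 72 h libraries and those with BRD alone, carried 6.18% to 10.8% of their counts on MTRNR2L12, against 0.166% to 0.653% in the other libraries, so no test was made across that divide. Levels are CPM (counts scaled to a library total of 1 M, with TMM factors), changes are log2 ratios from edgeR's quasi-likelihood test with their standard errors (SE), and a gene was called at a Benjamini-Hochberg adjusted p under 0.05 over all genes tested. In bulk RNA, fewer cells of a type and less RNA per cell cannot be told apart.

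On GRCh38 (GENCODE v29), ID1 lies at chr20:31605283-31606515, ID2 at chr2:8678845-8684453, ID3 at chr1:23557918-23559794 and ID4 at chr6:19837386-19840684. BMP2 lies at chr20:6767664-6780280, BMP4 at chr14:53949736-53958761, BMP7 at chr20:57168748-57266629, SMAD6 at chr15:66702228-66782848 and SMAD9 at chr13:36844831-36920765. The antisense gene ID2-AS1 overlaps ID2, and BMP7-AS1 lies inside BMP7. Use of strand in the counting is not given in the sources used here, so reads of these pairs may be mixed.

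With JNJ and with BRD, ID1 and ID4 had the largest rises over Activin A at 72 h among the ID genes. The stretch before each of their start sites is shown for that reason. The sequences are from RefSeq (GRCh38.p14), plus strand, from 250 to 41 bases before the start, at chr20:31605039-31605248 for ID1 and chr6:19837120-19837329 for ID4. Capitals mark matches, on either strand, to 3 motifs known from SMAD binding, namely the SMAD box CAGAC, the palindrome GGCGCC and the GC-rich BMP motif GCCGNCGC.
ID1: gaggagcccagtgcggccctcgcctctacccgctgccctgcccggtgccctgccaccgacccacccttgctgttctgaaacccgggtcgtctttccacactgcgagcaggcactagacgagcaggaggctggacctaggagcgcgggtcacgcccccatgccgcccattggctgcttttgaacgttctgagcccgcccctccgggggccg
ID4: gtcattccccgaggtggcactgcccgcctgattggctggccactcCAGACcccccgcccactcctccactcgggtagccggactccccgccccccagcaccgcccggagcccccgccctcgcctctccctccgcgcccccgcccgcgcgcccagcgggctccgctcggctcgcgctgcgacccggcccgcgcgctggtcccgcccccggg
The ID4 stretch held 1 match, to CAGAC, and the ID1 stretch held 0. Promoter windows of 300 bases, from 250 before to 50 after the start, were found for 7 of the 9 genes. Sequence outside these windows was not searched, so the counts below say nothing on motifs further away. The windows of ID1, ID2 and SMAD6 held 0 matches to any of the 3 motifs, and those of ID3 and ID4 held 1 each, to CAGAC. BMP4 had 3 windows, each with 1 match to CAGAC, and 1 of them also held 2 matches to GGCGCC, the only ones to that motif in the windows of the set. The window of SMAD9 held 1 match to CAGAC and 8 to GCCGNCGC, of which 7 overlap in a run and 1 lies apart. Among 35116 promoter windows of that length, 45.3% held CAGAC, 19.2% held GGCGCC and 16.8% held GCCGNCGC. A match is a description of letters only.

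**Figure D1:**
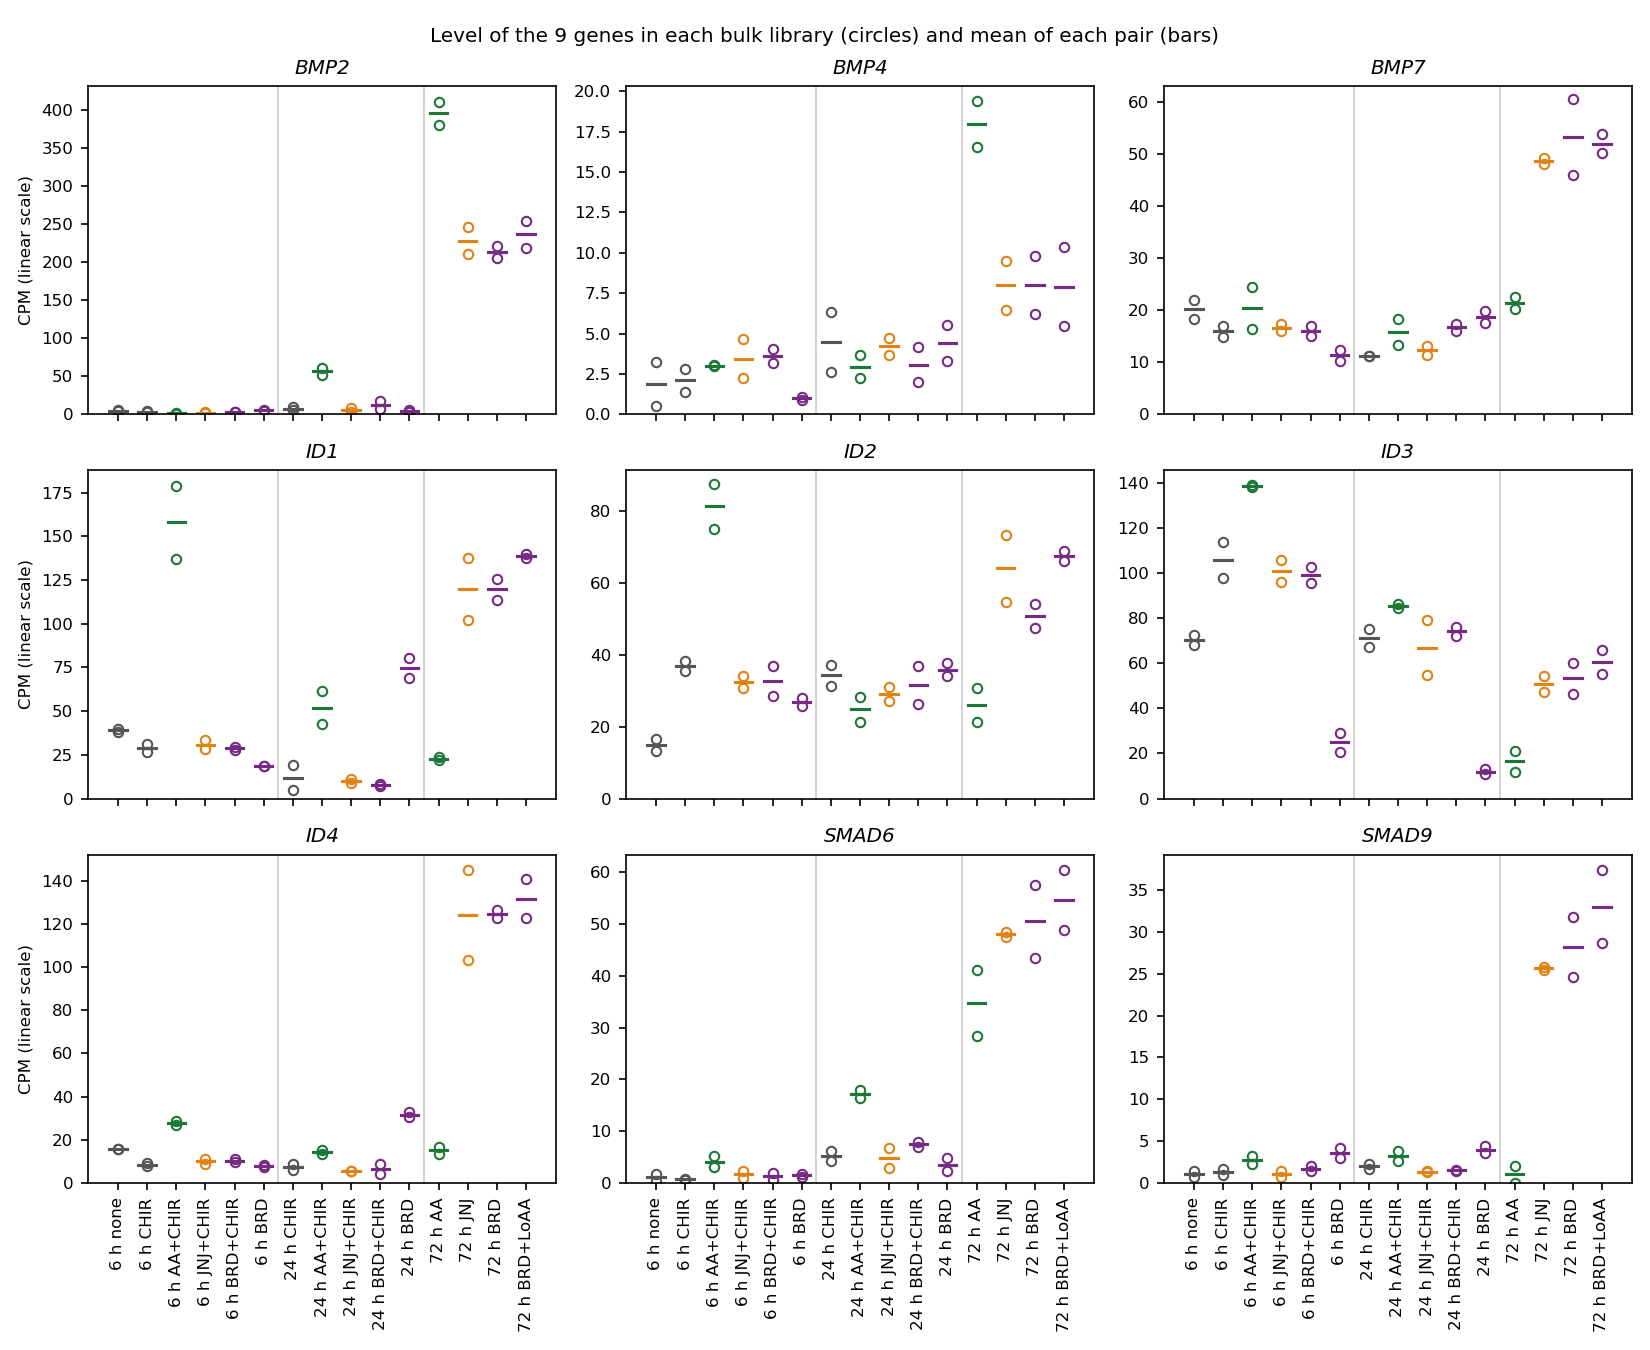
CPM (linear vertical axis, from 0) of each of the 9 genes in each of the 30 bulk libraries, with groups along the horizontal axis, circles for libraries and bars for the mean of each pair; colours mark Activin A with CHIR (green), JNJ (orange), BRD (purple) and neither (grey). BMP2 is highest with Activin A at 72 h (380 and 411), ID1 and ID2 with Activin A at 6 h, and ID4, BMP7 and SMAD9 with the compounds at 72 h.

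CHIR alone, set against untreated cells at 6 h, gave different responses among the ID genes. ID2 and ID3 rose and ID4 fell, 3 of 9 genes in all. Over all genes tested 2.96% were called, 1.69% higher and 1.28% lower. ID2 read 16.6 and 13.3 CPM untreated and 38.3 and 35.6 CPM with CHIR. Both CHIR libraries lay above both untreated ones, a log2 change of 1.30 (SE 0.16, edgeR adjusted p = 8.3e-05). ID3 read 68.3 and 72.5 CPM untreated and 114 and 97.7 CPM with CHIR, a log2 change of 0.58 (SE 0.12, edgeR adjusted p = 0.011). ID4 was at 15.4 and 15.5 CPM untreated and 9.17 and 7.68 CPM with CHIR, and fell by 0.88 on the log2 scale (SE 0.22, edgeR adjusted p = 0.030). The groups of ID3 and ID4 did not overlap either, nor did those of BMP2, BMP7 and ID1, which were not called. Leaving out any 1 of the 4 libraries ended the call of ID4 (adjusted p 0.0959 to 0.288), and leaving out CHIR replicate 1 or untreated replicate 1 ended that of ID3 (0.169 and 0.118). Both calls were also lost in a single fit over all 30 bulk libraries (adjusted p = 0.187 for ID3 and 0.115 for ID4). ID1 read 38.1 and 39.8 CPM untreated and 31.5 and 26.8 CPM with CHIR, with a log2 change of -0.43 that did not pass (edgeR adjusted p = 0.15). The ligands and both SMADs did not pass. BMP2, BMP4, SMAD6 and SMAD9 each stayed at or under 5.12 CPM in these libraries, and BMP7 read 18.3 and 22.04 CPM untreated and 14.9 and 17.0 CPM with CHIR (log2 -0.34, edgeR adjusted p = 0.534). Of the wider pathway, 2 of 10 receptors and co-receptors (RGMA and RGMB) rose, FST, an extracellular antagonist of Activin and of some BMPs, rose as 1 of 11 tested secreted antagonists, and the inhibitors BAMBI and SKIL fell. Among cell type markers EOMES and TBXT rose, as 2 of 5 tested primitive streak markers, and the streak list summed to 10.1 to 12.5 CPM untreated and 55.5 to 60.0 CPM with CHIR. Their part in the changes of the ID genes was not tested.

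Activin A added to CHIR raised 3 of the 4 ID genes within 6 h. Of all genes tested 1.49% were called, and 0.76% of all genes were called higher. ID1 read 31.5 and 26.8 CPM with CHIR and 179 and 137 CPM with Activin A and CHIR. Replicate 1 with Activin A held the highest ID1 level of the 30 bulk libraries, the pairs did not overlap, and the change was 5.42-fold (log2 2.44, SE 0.14, edgeR adjusted p = 2.7e-08). ID4 went from 9.17 and 7.68 CPM to 28.7 and 26.6 CPM (log2 1.71, SE 0.22, edgeR adjusted p = 0.00019). ID2 went from 38.3 and 35.6 CPM to 87.7 and 75.1 CPM (log2 1.14, SE 0.15, edgeR adjusted p = 0.00033). ID2 was thus higher with CHIR than without and higher again with Activin A. ID3 read 139 and 138 CPM with Activin A, above both CHIR libraries, but its log2 change of 0.39 did not pass (edgeR adjusted p = 0.16). No ligand was called. BMP2 was at 0.612 and 1.76 CPM with Activin A and at 3.80 and 2.94 CPM with CHIR, a log2 change of -1.49 (SE 0.55, edgeR adjusted p = 0.29) on 25 and 82 counts in all. SMAD6 was at 2.96 and 5.27 CPM against 0.826 and 0.572 CPM (log2 2.54, SE 0.85, edgeR adjusted p = 0.22), on 86 and 17 counts. BMP4 (2.96 and 3.05 CPM with Activin A), BMP7 (16.4 and 24.4 CPM) and SMAD9 (3.16 and 2.22 CPM) changed by 0.52, 0.36 and 1.07 on the log2 scale, none of which passed (edgeR adjusted p = 0.857, 0.588 and 0.617).

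Other genes of the pathway were called alongside. Among 8 inhibitors of the cell surface and cytoplasm, SMAD7, which blocks both SMAD branches, rose by 1.05 on the log2 scale and BAMBI, a pseudoreceptor, by 1.08. Among 10 receptors and co-receptors BMPR1A and BMPR2 rose and RGMA fell. Among 11 tested secreted antagonists CER1, which binds Nodal and BMP, rose by 2.70 and NBL1 by 2.12, and FST fell by 0.64. Of the 3 E proteins, TCF4 fell, and none of the 3 SMAD transducers or 3 tested further BMP targets was called. Cell type markers moved in the same comparison. MIXL1, EOMES, TBXT and FGF8 rose, 4 of 5 tested primitive streak markers, and that list summed to 55.5 to 60.0 CPM with CHIR and 248 to 256 CPM with Activin A, with FGF17 at 0 in all 4 libraries. Of the 8 pluripotency markers SOX2 fell from a mean of 211 to 89.7 CPM and DNMT3B from 985 to 804 CPM, and NANOG rose from 143 to 216 CPM. Their part in the rise of the ID genes was not tested.

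At 24 h BMP2 and ID1 were higher with Activin A and CHIR than with CHIR, 2 of 9 genes, where 2.86% of all genes tested were called and 1.24% were called higher. BMP2 read 8.97 and 5.19 CPM with CHIR and 60.7 and 52.1 CPM with Activin A and CHIR, a 7.95-fold rise (log2 2.99, SE 0.47, edgeR adjusted p = 0.0013). ID1 was at 4.73 and 19.0 CPM with CHIR, a wide pair, and at 42.6 and 61.5 CPM with Activin A. Its groups did not overlap (log2 2.13, SE 0.42, edgeR adjusted p = 0.0086), and the call was lost without Activin A and CHIR replicate 2 (adjusted p = 0.105). The size of the ID1 change rested on the wide CHIR pair: it was 1.45 without CHIR replicate 1 and 3.46 without CHIR replicate 2. SMAD6 read 6.23 and 4.12 CPM with CHIR and 16.4 and 17.8 CPM with Activin A, a log2 change of 1.72 (SE 0.53) that edgeR did not call (adjusted p = 0.11) and that DESeq2 and limma-voom did (adjusted p = 0.00798 and 0.0156). ID4 was at 6.10 and 8.53 CPM against 15.4 and 13.3 CPM (log2 0.97, edgeR adjusted p = 0.25). ID2, raised at 6 h, read 31.4 and 37.3 CPM with CHIR and 28.3 and 21.4 CPM with Activin A at 24 h (log2 -0.47, edgeR adjusted p = 0.41). ID3 read 75.3 and 67.3 CPM with CHIR and 84.6 and 86.3 CPM with Activin A (log2 0.26, edgeR adjusted p = 0.586). BMP4, BMP7 and SMAD9 changed by -0.60, 0.49 and 0.70 on the log2 scale, and none passed (edgeR adjusted p = 0.815, 0.515 and 0.827).

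The change of the Activin A effect between the times was tested as an interaction, in which 1.64% of all genes were called, 0.555% higher and 1.08% lower at 24 h. BMP2 was among the former, with an effect larger by 4.48 on the log2 scale (SE 0.77, edgeR adjusted p = 0.0027), and by 5.44 without Activin A and CHIR replicate 2 at 6 h. ID2 was among the latter, with an interaction of -1.60 (SE 0.29, edgeR adjusted p = 0.0044). The other 7 genes, ID4 among them, did not pass. Libraries of a group varied more in the 24 h fit, with a common coefficient of variation of 0.406 against 0.140 at 6 h. A change of a given size was therefore harder to call at 24 h. With limma-voom the BMP2 interaction was 4.63 and did not pass (adjusted p = 0.192). For ID1 the interaction was -0.30 (95% interval -1.39 to 0.78). The 6 h and 24 h libraries carry separate title series (33 and 38), so levels at these times and the series cannot be told apart, and each effect was measured within its own series. At 24 h the further BMP targets MSX1 and TBX3 rose as 2 of 7 tested, from means of 0.0889 and 0.505 CPM to 21.8 and 19.2 CPM. SMAD7 and SKIL rose, CER1 rose from a mean of 92.4 to 1232 CPM, and FST fell. Mesoderm markers, a list that holds MSX1 as well, moved in the same comparison, and 4 of 6 tested rose. That list summed to 230 to 255 CPM with CHIR and 322 to 323 CPM with Activin A. MESP1, MESP2 and HAND1 had 0 counts in both CHIR libraries. The definitive endoderm list, which holds CER1, summed to 231 to 269 CPM with CHIR and 1435 to 1574 CPM with Activin A. Primitive streak markers summed to 1189 to 1256 and 2573 to 2723 CPM, and 7 of 8 rose. Of the pluripotency markers SOX2 fell from a mean of 32.6 to 7.54 CPM, and NANOG and LIN28A fell. Their part in these results was not tested.

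**Figure D2:**
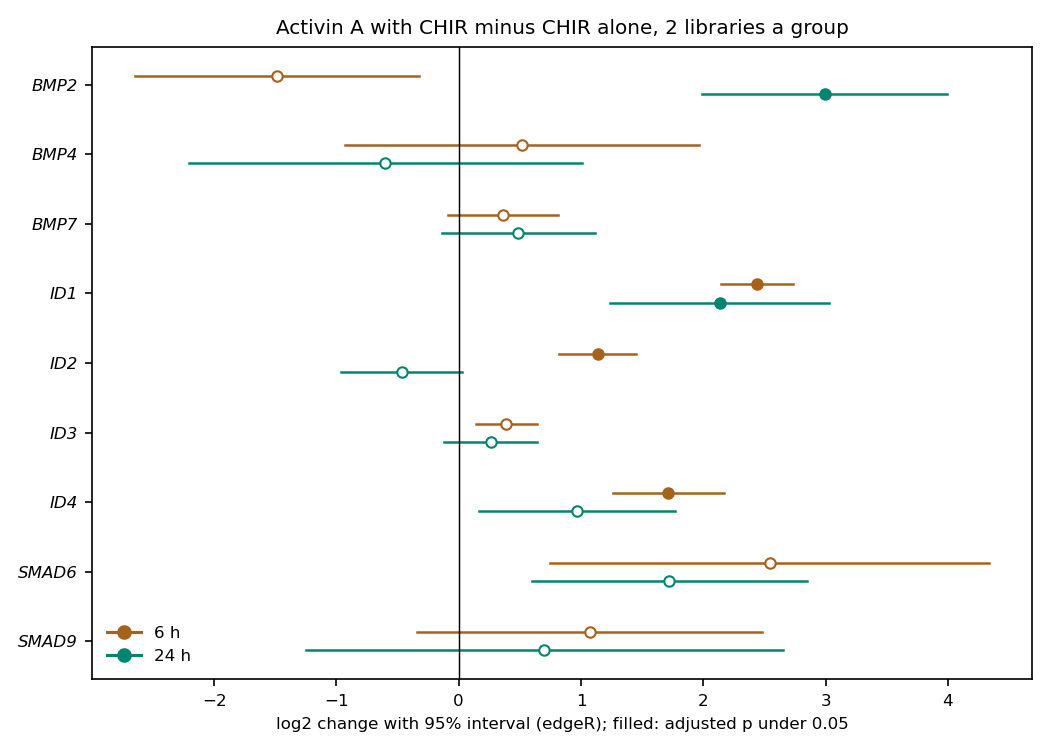
Log2 change (horizontal axis) of each of the 9 genes with Activin A and CHIR against CHIR alone at 6 h (brown) and 24 h (green), with 95% intervals from edgeR and filled points for adjusted p under 0.05. ID1 lies above 2 at both times, ID2 and ID4 are filled at 6 h only, and BMP2 lies at -1.49 at 6 h and 2.99 at 24 h.

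JNJ and BRD, added to CHIR, gave no called change in the 9 genes at 6 h or 24 h. At 6 h edgeR called 0.0202% of all genes for JNJ, 0% for BRD and 0.0202% for BRD against JNJ; at 24 h it called 0.154%, 0% and 0.18%. At an unadjusted p under 0.05 none of the 9 passed in the 4 comparisons with CHIR and 1 did in BRD against JNJ at 24 h, and DESeq2 and limma-voom called 0 of the 9 in each. For all genes under BRD, 452 at 6 h and 738 at 24 h had an unadjusted p under 0.05, and DESeq2 called 1 and 42 while limma-voom called 0 and 0. At 24 h the totals over all genes also depended on the tool: edgeR called 24 for JNJ and 28 for BRD against JNJ, DESeq2 287 and 295, the single fit over all 30 libraries 286 and 256, and limma-voom 36 and 25. ID1 at 6 h stayed between 26.8 and 33.4 CPM in the 6 libraries with CHIR and no Activin A, and its change was 0.09 with JNJ (95% interval -0.22 to 0.39) and -0.02 with BRD (-0.32 to 0.29). These intervals do not reach the 2.44 measured with Activin A. ID1 at 24 h ranged from 4.73 to 19.0 CPM over the corresponding 6 libraries. BMP2 with BRD at 24 h read 7.01 and 18.0 CPM and with JNJ 7.59 and 3.23 CPM, and this pair gave the single unadjusted p under 0.05 (log2 1.19, 95% interval 0.22 to 2.16, edgeR adjusted p = 0.49), with groups that overlapped. The effect of JNJ differed between 6 h and 24 h for 0.0319% of all genes and that of BRD for 0% (edgeR; DESeq2 called 62 and 13 genes and limma-voom 5 and 0, and 1139 and 694 had an unadjusted p under 0.05). None of the 9 was called, and none had an unadjusted p under 0.05.

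By 72 h, sorted cells made with JNJ or BRD differed from those made with Activin A in 8 of the 9 genes. All 4 ID genes, SMAD9 and BMP7 were higher with either compound, and BMP2 and BMP4 were lower. The background is wide here: with JNJ 18.5% of all genes were called, 8.57% higher and 9.92% lower, and with BRD 21.3% were called, 9.71% of all genes higher and 11.6% lower. Both comparisons share the Activin A pair, so their likeness is no independent support.

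ID1 read 23.5 and 22.2 CPM with Activin A, 102 and 138 CPM with JNJ and 114 and 126 CPM with BRD. The Activin A libraries were the lowest at this time, with a 5.19-fold rise for JNJ (log2 2.37, SE 0.16, edgeR adjusted p = 7.2e-07) and 5.18-fold for BRD. ID4 read 16.5 and 13.4 CPM with Activin A, 103 and 145 CPM with JNJ and 123 and 126 CPM with BRD, an 8.11-fold and an 8.15-fold rise (edgeR adjusted p = 3.3e-07 and 3.0e-07). ID3 read 11.7 and 21.3 CPM with Activin A, 47.3 and 54.5 CPM with JNJ and 46.5 and 60.1 CPM with BRD (log2 1.65 and 1.72, edgeR adjusted p = 0.00043 and 0.00027). These groups did not overlap for any of the 3 genes, but the share of all genes without overlap is not given here. ID2 read 21.4 and 30.7 CPM with Activin A, 54.8 and 73.4 CPM with JNJ and 54.3 and 47.6 CPM with BRD (log2 1.30 and 0.97, edgeR adjusted p = 0.00051 and 0.0037), and its call for BRD was lost without Activin A replicate 1 (adjusted p = 0.0646). The 4 ID genes together summed to 73.2 and 87.6 CPM with Activin A and to 307.3 and 410.8 CPM with JNJ, and to 338 and 360 CPM with BRD.

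SMAD9, the transducer of the set, had the largest log2 change. It held 2.02 and 0 CPM with Activin A, from 15 counts in 1 library and 0 in the other, against 25.8 and 25.5 CPM with JNJ and 31.8 and 24.6 CPM with BRD. The fitted changes were 4.38 (SE 0.50) and 4.52 (SE 0.50), with edgeR adjusted p = 5.3e-05 and 3.6e-05. Their size rests on the 15 counts of Activin A replicate 1: without replicate 2 they were 3.67 and 3.82, and without replicate 1, where the Activin A level is 0, the fit gave 10.4 and 10.5, which are no measure of size. In every bulk library before 72 h SMAD9 stayed at or under 4.37 CPM. SMAD6 read 41.2 and 28.3 CPM with Activin A, 47.4 and 48.6 CPM with JNJ and 43.5 and 57.5 CPM with BRD. Its compound libraries all lay above the Activin A pair, but the changes of 0.44 and 0.52 did not pass (edgeR adjusted p = 0.16 and 0.087), and BRD passed without Activin A replicate 1 or BRD replicate 1 (adjusted p = 0.0412 and 0.0432).

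The ligands split. BMP2 read 380 and 411 CPM with Activin A, 245 and 210 CPM with JNJ and 221 and 205 CPM with BRD, so that it fell by 0.81 and 0.90 on the log2 scale (SE 0.14 each, edgeR adjusted p = 0.0012 and 0.00047). BMP4 read 16.5 and 19.4 CPM with Activin A, 6.45 and 9.50 CPM with JNJ and 9.81 and 6.21 CPM with BRD (log2 -1.17 and -1.18, edgeR adjusted p = 0.040 and 0.035). The BMP4 calls were marginal. That for JNJ was lost without either library of either group (adjusted p 0.071 to 0.231) and with DESeq2 (0.0531), and that for BRD was lost without either Activin A library or BRD replicate 2 (0.108, 0.181 and 0.186). In the single fit over all 30 libraries both BMP4 calls were lost (adjusted p = 0.252 and 0.229), as was that of BMP2 for JNJ (0.0564). BMP7 read 22.6 and 20.2 CPM with Activin A, 48.1 and 49.2 CPM with JNJ and 60.6 and 46.02 CPM with BRD, and rose 2.24-fold and 2.45-fold (edgeR adjusted p = 0.00053 and 0.0002). Per kb of exon, BMP2 was the leading ligand in each condition at 72 h, at 109.8 CPM per kb with Activin A against 8.54 for BMP4 and 5.08 for BMP7, and at 59.2, 3.81 and 12.6 CPM per kb with BRD. Thus BMP7 ranked below BMP4 per kb with Activin A and above it with BRD.

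JNJ and BRD were not called apart at 72 h in any of the 9 genes, and edgeR called 0% of all genes between them (390 had an unadjusted p under 0.05, DESeq2 called 5 and limma-voom 0). None of the 9 had an unadjusted p under 0.05. The differences of BRD from JNJ were 0.00 for ID1 (95% interval -0.31 to 0.31), 0.01 for ID4 (-0.34 to 0.35), -0.33 for ID2 (-0.74 to 0.07) and 0.14 for SMAD9 (-0.61 to 0.88). Low Activin A added to BRD gave 0 calls in the set and 0% over all genes (edgeR; DESeq2 called 4 genes and limma-voom 0, and 740 had an unadjusted p under 0.05). One of the 9, ID2, had an unadjusted p under 0.05: it read 69.0 and 66.2 CPM with low Activin A, above both BRD libraries (log2 0.42, 95% interval 0.01 to 0.83, edgeR adjusted p = 0.92). With low Activin A, ID1 was at 138 and 140 CPM, ID4 at 141 and 123 CPM, SMAD9 at 37.4 and 28.7 CPM and BMP2 at 219 and 254 CPM, beside the values of BRD alone above.

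**Figure D3:**
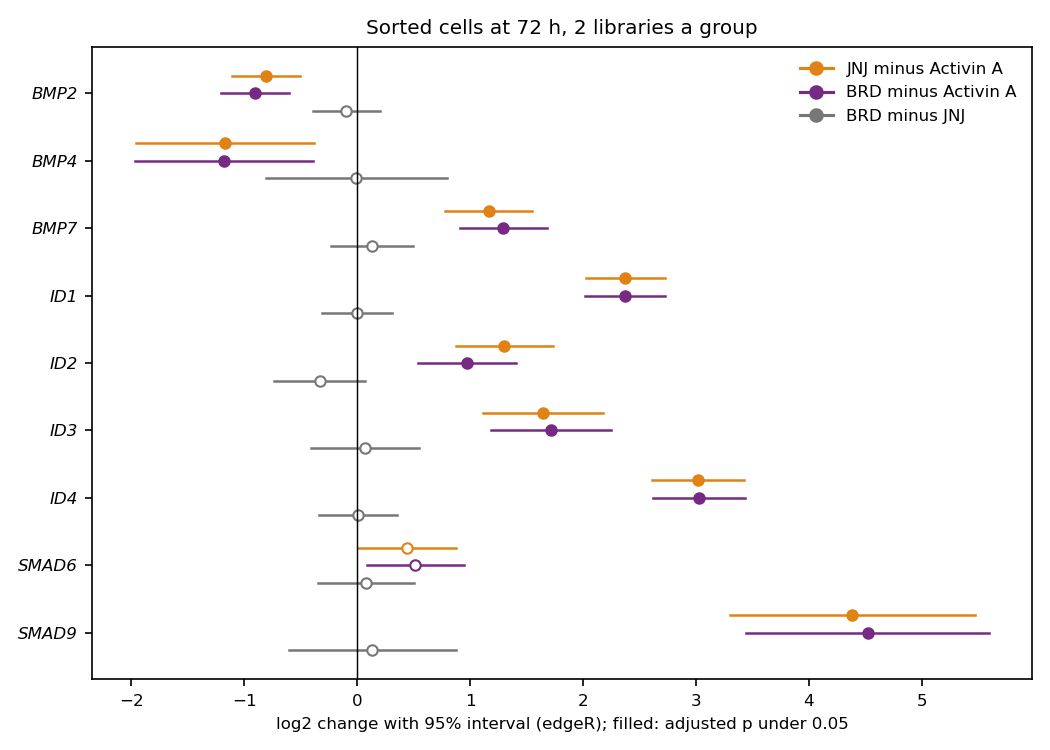
Log2 change (horizontal axis) of each of the 9 genes in sorted cells at 72 h for JNJ against Activin A (orange), BRD against Activin A (purple) and BRD against JNJ (grey), with 95% intervals from edgeR and filled points for adjusted p under 0.05. Points for both compounds lie side by side, below 0 for BMP2 and BMP4 and from 0.97 to 4.52 for ID1 to ID4, BMP7 and SMAD9, while the grey intervals all include 0.

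Genes around the set moved at 72 h as well. Of 6 tested further BMP targets, 4 rose with either compound: TBX3 (5.45 CPM with Activin A, 93.8 with JNJ and 94.5 with BRD), GATA3 (5.64, 124 and 127 CPM), MSX2 (0.841, 6.54 and 7.56 CPM) and GATA2 (0 counts with Activin A, 2.61 and 1.42 CPM). Of 12 tested secreted antagonists, CER1 fell from 4059 to 97.6 and 70.5 CPM, and FST and NBL1 fell, while CHRD, which traps BMPs, rose from 0.202 to 3.72 and 2.43 CPM. BAMBI rose and TOB1 fell with both, among 8 inhibitors, and SMURF2 fell with BRD (log2 -0.57, edgeR adjusted p = 0.026) and had a change of -0.40 with JNJ that did not pass (0.118). Among 8 tested receptors and co-receptors ACVR2A and RGMB fell with both. The type I receptor BMPR1A rose with JNJ (log2 0.41, edgeR adjusted p = 0.0314) and had a change of 0.34 with BRD that did not pass (0.0607). BMPR1B, another type I receptor, fell with BRD (log2 -1.34, edgeR adjusted p = 0.0258) and had a change of -1.01 with JNJ that did not pass (0.0851). The 3 SMAD transducers and 4 tested further ligands held 0 calls. Cell type markers moved too. The amnion or trophoblast list, which holds GATA2 and GATA3 as well, summed to 46.2 to 54.7 CPM with Activin A and 148 to 184 CPM with JNJ or BRD. Of its 6 tested genes GATA2, GATA3 and ISL1 rose and TFAP2C and GABRP fell with either compound, and GATA2 and HAND1 had 0 counts in both Activin A libraries, as KRT7 had in both BRD libraries. The definitive endoderm list summed to 5091 to 5698 CPM and 1276 to 1455 CPM, a sum that holds CER1 and its fall. Its other genes did not move one way: of 9 tested, CER1 included, 4 rose and 4 fell with JNJ, and 3 rose and 4 fell with BRD. FOXA2 rose from a mean of 17.2 to 55.3 and 58.5 CPM, and SOX17 fell from 391 to 242 and 238 CPM. Primitive streak markers summed to 2333 to 2339 CPM with Activin A and 636 to 905 CPM with JNJ or BRD, with 4 of 8 lower (FGF17, MIXL1, EOMES and GSC) and 2 higher (EVX1 and TBXT) with either compound. Of the 8 pluripotency markers SOX2 (means of 1.47, 18.2 and 19.2 CPM), POU5F1 (57.9, 149 and 117 CPM) and ZFP42 (19.1, 51.0 and 59.2 CPM) rose with both, and DNMT3B fell with BRD. The 5 cycling markers all fell. Their part in the changes of the ID genes was not tested.

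BRD without CHIR was measured at 6 h and 24 h. Of the 9 genes, 5 were higher at 24 h and ID3 was lower, in a comparison in which 28% of all genes were called, 13.5% higher and 14.5% lower. ID1 read 18.3 and 18.4 CPM at 6 h and 80.5 and 69.1 CPM at 24 h (log2 2.00, SE 0.14, edgeR adjusted p = 0.00011). ID4 read 7.12 and 8.26 CPM, then 32.6 and 30.7 CPM (log2 2.03, SE 0.15, edgeR adjusted p = 0.00017). ID3 went the other way, from 20.6 and 29.2 CPM to 13.2 and 10.8 CPM (log2 -1.11, SE 0.20, edgeR adjusted p = 0.0046). ID1 and ID3 thus moved in opposite directions in this comparison. No untreated group belongs to this title series, and none could be analysed at 24 h. The effects of BRD and of time in culture therefore cannot be told apart. BMP4 rose from 1.10 and 0.905 CPM to 5.51 and 3.29 CPM (log2 2.00, edgeR adjusted p = 0.0095), BMP7 from 12.4 and 10.3 CPM to 19.9 and 17.5 CPM (edgeR adjusted p = 0.017) and SMAD6 from 1.73 and 1.13 CPM to 2.30 and 4.74 CPM (edgeR adjusted p = 0.036). These 3 calls were lost without either 6 h library, leaving 3 of the 9 called, and SMAD6 also without the deep 24 h replicate 2 and with DESeq2 (adjusted p = 0.414 and 0.13). The single fit over all 30 libraries lost BMP4 (adjusted p = 0.0519) and SMAD6 (0.115). ID2 read 28.03 and 25.8 CPM at 6 h and 37.7 and 34.1 CPM at 24 h, with a log2 change of 0.39 just short of the threshold (edgeR adjusted p = 0.0514), and it passed with RLE factors (0.0481) and without 24 h replicate 2 (0.0156). BMP2 read 5.48 and 4.64 CPM, then 5.36 and 3.484 CPM (edgeR adjusted p = 0.437), and SMAD9 read 4.20 and 2.94 CPM, then 3.52 and 4.37 CPM (0.7), with groups that overlapped for both. Groups with CHIR at these times came from other title series and are given as values only: with BRD and CHIR, ID1 read 29.6 and 27.7 CPM at 6 h and 6.92 and 8.55 CPM at 24 h, and ID3 read 103 and 95.6 CPM, then 72.3 and 76.0 CPM.

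For 4 of the members, the genes whose group means followed them most closely were found by Pearson correlation of log2 CPM over 15 groups and 12874 genes, as a description; groups share time and title series. For ID1 these were HS3ST1 (r = 0.89), ID4, NDRG2, CPZ and ZNF567. For ID4 they were FGFR3 (r = 0.975), GREB1L, BMP7 (r = 0.947), OTOGL and NDRG2. For BMP2 they were LRIG3 (r = 0.972), LHX1, CYP26A1, FLRT3 and ASXL1, and for BMP4 they were CTDSP2 (r = 0.953), NCR1, RBM20, EGF and WDR86. Over the 30 libraries in place of group means, some fell far down the order: ZNF567 to place 43 for ID1, and RBM20, WDR86 and EGF to 26, 24 and 19 for BMP4. FLRT3 stood at place 15 for BMP2 with another prior count.

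The single-cell libraries kept 4193 of 6244 barcodes at 36 h, 4511 of 6321 in endoderm and 5632 of 6266 in mesoderm, with median depths of 21152, 7680 and 7873 UMIs. Libraries shared 23 to 38 barcodes in pairs. Each condition is 1 library, so no test was made, and intervals are exact 95% Poisson intervals that cover counting error only. SOX17, a defining endoderm gene, was at 122 CPM in endoderm and had 0 UMIs at 36 h and in mesoderm. TBXT, a streak and mesoderm gene, was at 28.3 CPM at 36 h, 3.05 in endoderm and 326 in mesoderm. POU5F1, a pluripotency gene, was at 995 CPM in the library labelled primitive streak.

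ID3 led the set in each library, with 513 CPM at 36 h (508 to 518), 213 CPM in endoderm (208 to 218) and 693 CPM in mesoderm (685 to 701). ID1 followed at 143, 55.9 and 127 CPM and ID2 at 115, 44.5 and 159 CPM. All 3 were lowest in endoderm, ID3 by a ratio of 2.40 against 36 h and 3.25 against mesoderm. ID4, at 0.816, 2.43 and 2.02 CPM, and SMAD9, at 0.259, 0.503 and 1.06 CPM, rested on few UMIs, 63 to 91 for ID4 and 17 to 48 for SMAD9 per library. SMAD6 had another order: 1.08 CPM at 36 h, 18.9 CPM in endoderm (17.4 to 20.4) and 2.24 CPM in mesoderm. BMP2 was likewise highest in endoderm, at 41.7 CPM (39.6 to 43.9) against 14.8 in mesoderm and 3.68 at 36 h. BMP4 (5.95, 11.8 and 20.3 CPM) and BMP7 (4.11, 7.55 and 13.1 CPM) were highest in mesoderm. After thinning each cell to 2000 UMIs, which left out 777, 826 and 93 shallower cells, ID3 had a UMI in 56.9%, 27.3% and 69.1% of cells and BMP2 in 0.761%, 6.38% and 2.56%. Before thinning ID3 had one in 85.9%, 49.4% and 94.3% of cells and BMP2 in 4.46%, 20.6% and 10.5%. The order of genes differed in the sorted bulk cells made with Activin A at 72 h. There the means were 16.5 CPM for ID3, 22.8 CPM for ID1 and 26.0 CPM for ID2. Bulk and single-cell levels were not tested against each other.

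Within libraries BMP2 and the ID genes were placed differently among clusters. The clusters were made from all genes, these included, so their differences are descriptions, and they are named by number. At 36 h, BMP2 was at 37.8 CPM in cluster 5 (209 cells, led by DKK4, LHX1, DKK1 and APLNR) and at most 1.43 CPM in the other 6 clusters. Thinned cells with a BMP2 UMI made up 9.27% of that cluster and at most 0.405% of any other, at median depths of 24364 UMIs in cluster 5 and 22800 in cluster 1. In the same cluster ID2 was at 77.2 CPM and ID1 at 105 CPM, against 128 and 154 CPM in cluster 1 (1534 cells, led by SPRY1 and SOX2), and ID3 was at 584 against 521 CPM. Clusters 3, 6 and 7 at 36 h had median depths of 1900, 2245 and 2688 UMIs, far under that of the library.

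In the endoderm library, cluster 6 (262 cells, led by CYR61 and SOX2) held ID1 at 164 CPM and ID2 at 142 CPM, with BMP2 at 14.4 CPM and SMAD6 at 9.35 CPM. At least 10% of its cells had a UMI for 7 of 8 pluripotency markers but only 3 of 9 endoderm markers, SOX17 and FOXA2 not among them. The endoderm list summed to 1268 CPM there and 3870 CPM in cluster 1, and the pluripotency list to 1781 and 1331 CPM. The part of this difference in the ID levels was not tested. Cluster 1 (1296 cells, led by S100A14, CCL2 and BST2) held ID1 at 24.1 CPM, ID2 at 21.4 CPM, BMP2 at 45.1 CPM and SMAD6 at 17.6 CPM. Such an opposite order did not hold over all clusters. Cluster 3 held ID1 at 71.3 CPM with BMP2 at 53.1 and SMAD6 at 22.9 CPM. Cluster 7 held ID1 at 107 CPM with BMP2 at 37.1 and SMAD6 at 27.7 CPM. BMP2 was at 37.1 to 53.1 CPM in clusters 1, 2, 3, 5 and 7, and at 6.94 CPM in cluster 4 (498 cells, led by ANKRD37, DDIT4 and MT1X). These endoderm clusters also differed in depth and mitochondrial share: median depths were 2454 UMIs in cluster 4, 6548 in cluster 6 and 9167 in cluster 1, and median mitochondrial shares 0.38%, 0.78% and 2.49%. Their part in these levels was not tested. BMP4 was highest in cluster 7, at 34.2 CPM (139 cells, led by HAPLN1 and GYPE). In mesoderm, cluster 1 (1670 cells, led by CYP1B1) held ID2 at 228 CPM and BMP4 at 10.8 CPM, and cluster 2 (1592 cells, led by SSTR2 and APLNR, with TBX6 among its leading genes) held ID2 at 79.1 CPM and BMP4 at 25.1 CPM. Inside single cells the rank correlations were low: over thinned cells the highest Spearman coefficient among the pairs computed was 0.086, between ID2 and ID3 in mesoderm. The endoderm cells with a BMP2 UMI had an ID1 UMI in 8.09% of cases, against 8.44% of those without. Endoderm cells with an ID1 UMI had an ID2 UMI in 14.5% of cases, against 7.97% of those without. In counts this sparse such values are no finding.

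**Figure D4:**
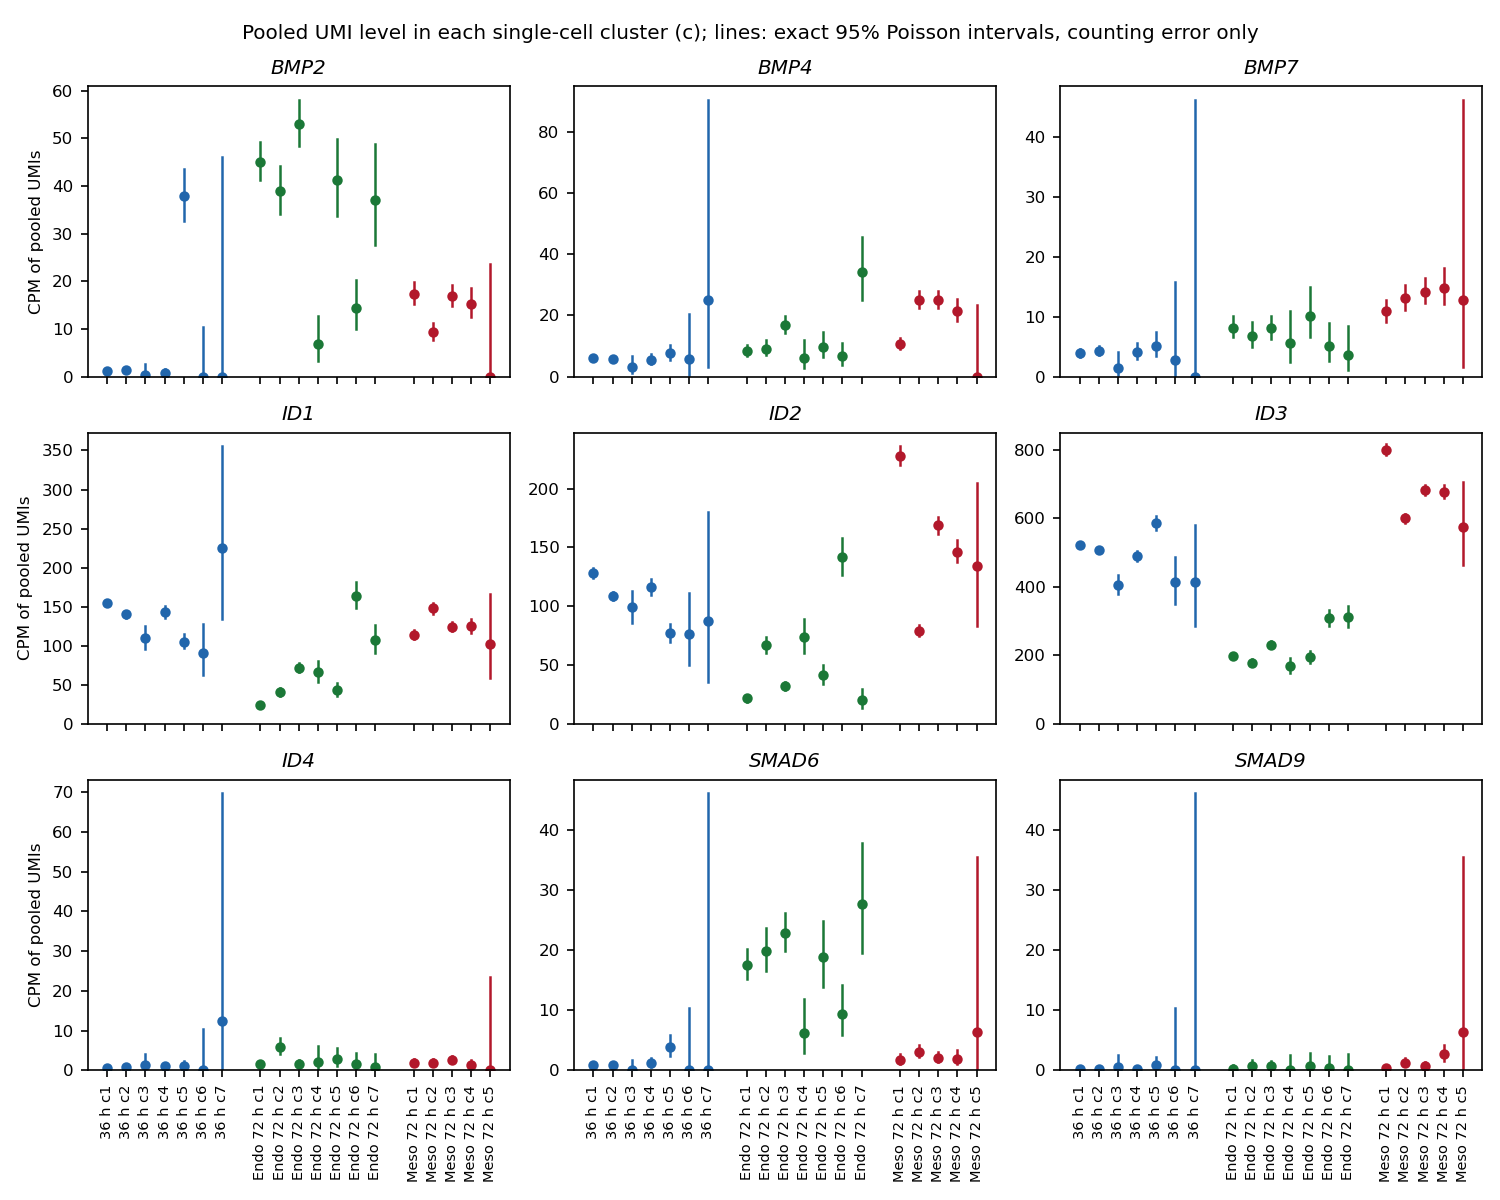
CPM of pooled UMIs (linear vertical axis, from 0) of each of the 9 genes in each cluster of the 36 h (blue), endoderm (green) and mesoderm (red) libraries, with exact 95% Poisson intervals as lines. BMP2 stands at 37.8 CPM in cluster 5 at 36 h, and wide lines mark clusters with few UMIs. Within the endoderm library ID1 and ID2 peak at 164 and 142 CPM in cluster 6, whose endoderm markers were low.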

How the data were processed

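The 9 genes and the pathway and marker lists were chosen with earlier results of these data known. The authors deposited bulk values as estimated counts (expected counts) per gene (16103 genes, 30 columns); Salmon 1.4.0, edgeR 3.34.0 and limma 3.48.1 are listed, with no role, in the submitters' processing notes, which also name GRCh38. After rounding to whole counts, edgeR 4.0.16 (R 4.3.3) was run with TMM factors and the filterByExpr filter, using its two-sided quasi-likelihood test; each time point had its own fit, as did BRD alone and the interactions between 6 h and 24 h. Alternatives were DESeq2 1.42.0, limma-voom (limma 3.58.1), RLE factors, no filter, a replicate block, 1 fit over all libraries and leaving out each library. The fits were tested on simulated data.

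For single cells the authors deposited matrices of UMI counts, written by Cell Ranger 3.0.2 per the file headers. Barcodes with fewer than 500 genes or over 10% mitochondrial UMIs were dropped, and no doublets were called or removed. Each library was clustered with leidenalg 0.10.2 (2000 variable genes, 30 components, 15 neighbours, resolution 0.5). The deposited aggregate of the same cells was not used. The rule for named genes takes all 9 members, which are given by counts and intervals where none was called, and of each pathway list up to 4 called genes with the smallest p are named; the SMAD motifs were chosen during the work. PCR reads of bulk libraries carry no molecular identifiers.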

Additional observations from a re-analysis of the deposited data

Results flagged for a closer look

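Effects that differed between time points by an interaction test were found for 2 of the 9 genes, both for Activin A with CHIR against CHIR alone. For BMP2 the effect was 4.48 log2 units higher at 24 h than at 6 h. For ID2 the difference was -1.60 log2 units.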

How the results depend on the processing

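Over all members, the count of called genes stayed within 1.5 times of its value in 171 of 179 alternatives, and 8 moved. Many of the 171 belong to comparisons with 0 called members, where the count stayed 0 in every alternative. All 8 that moved belong to comparisons with called members, so the total says little about how stable a nonzero count is. CHIR against untreated at 6 h gave 3 called genes, fewer when any 1 of its 4 libraries was left out, and 1 in a single fit over all 30 libraries. Activin A at 24 h gave 2, 1 to 2 when a library was left out (1 without Activin A and CHIR replicate 2), and 4 in the single fit, where ID4 and SMAD6 were added. BRD alone gave 6, and 3 without either 6 h library. The Activin A interaction gave 2, and 1 with limma-voom. The cause was not tested. Totals over all genes moved by over 1.5 times in the single fit for CHIR (441 to 186) and Activin A (222 to 91) at 6 h, Activin A at 24 h (445 to 1157) and BRD alone (3836 to 1881), with DESeq2 for Activin A at 24 h (445 to 1126) and its interaction (257 to 607), and with limma-voom for that interaction (257 to 131). Leaving out any 1 of their libraries also lowered the totals by over 1.5 times for CHIR at 6 h and Activin A at 24 h. For Activin A at 6 h, 3 of 4 libraries did so, and for BRD alone either 6 h library. For the interaction, either 6 h CHIR library or replicate 1 of Activin A and CHIR at 6 h did so. At 72 h, leaving out either Activin A library gave 1420 to 1537 for JNJ (2568) and 1607 to 1785 for BRD (2954). Of the log2 changes of single genes, 1570 kept their side of the threshold, 33 lost their call, 8 gained one and 0 reversed.

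Replicate numbers are shared across groups, but same-numbered libraries did not deviate together at 6 h (correlations of -0.064 to 0.049) or 24 h (-0.035 to 0.051). At 72 h the correlations were wider, from -0.198 (BRD with BRD plus LoAA) to 0.209 (BRD with JNJ). With the replicate block, the count was 7 for JNJ against Activin A at 72 h, where BMP4 was lost, and equal to the unblocked count in the other comparisons. In single cells, keeping all barcodes moved ID3 at 36 h to 506 CPM and ID2 in endoderm to 51.7 CPM. Shares of cells with a UMI depend on depth: with 1000 UMIs per cell or no thinning, 48 moved and 6 did not. Depth limits SMAD9 and SMAD6 at 6 h and ID4 and SMAD9 in single cells.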
